A study of Caenorhabditis elegans with 4 samples.

Results

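The genes described here are 10 digestive and lysosomal proteases of *C. elegans*, the aspartic protease genes *asp-1* to *asp-6* and the cathepsin B-like genes *cpr-1*, *cpr-4*, *cpr-5* and *cpr-6*. They were chosen by name, with earlier results of these data known. They are the rows with these gene symbols in the deposited expression tables of the wild-type neurons, 10 of the 42518 rows of each. All 10 were found, once each. The values come from 2 RNA-seq libraries of wild-type young adults of strain CZ631, which carries the reporter *juIs14[Pacr-2::gfp]*. Animals were grown for 72 hours at 20°C, dissociated with pronase, and from 80000 to 100000 GFP-positive cells were sorted per sample by FACS. The *acr-2* promoter labels ventral cord cholinergic motoneurons and also some unidentified head and tail neurons. The study's remaining 2 samples, from strain CZ5808, carry the same reporter together with *acr-2(gf)*. They were not analysed here, and mutant and wild-type neurons were therefore not compared.

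Aspartic proteases cleave proteins with a pair of catalytic aspartates, and cathepsin B-like proteases with a catalytic cysteine. Both are made with a signal peptide and a propeptide, and become active once the propeptide is removed in an acidic compartment. In *C. elegans* many of them are made by the intestine, where they digest bacterial food, and others reside in the lysosomes of many cells, neurons among them. *asp-3* and *asp-4* are known from neurons, since loss of either gene reduces the necrotic death of degenerating neurons.

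The unit of every level is FPKM, a fragment count from Cufflinks divided by transcript length and by the library's mapped total, so levels can be compared between genes of different length. Both libraries are of 1 condition, and the spread between them is that of 2 sorted samples, which may be technical. No test between groups was therefore possible, and each value below is a description. Of the 42518 rows, 13107 were above 0 in library 1 and 16792 in library 2. A gene was counted as expressed above 10 FPKM in both libraries, the limit of the study's methods, which 6885 rows passed. The study reports far fewer transcripts at this limit, and the difference was not resolved here. The 6885 rows are therefore not its list of expressed genes. Of 16 pan-neuronal genes and 7 genes of cholinergic motoneurons looked up, all passed this limit. Of genes of other tissues, 7 of 8 body-wall muscle genes, 7 of 8 germline genes and 7 of 13 intestinal genes passed it too. Of the hypodermal genes 3 of 7 passed it, of the pharyngeal genes 2 of 7 and of the coelomocyte genes 0 of 3. Fewer cells of a type and less RNA per cell cannot be told apart in such pooled samples.

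All 10 proteases were expressed above 10 FPKM in both wild-type libraries, against 40.2% of the 17128 rows with a value above 0 in either library and 32.9% of the 17886 annotated protein-coding genes found by name. Of the 10, 8 were above 100 FPKM in both libraries, against 24.6% of the 6885 expressed rows. The median of their mean levels was 279 FPKM, and that of all expressed rows was 45.6 FPKM. Together they held 0.329% of the summed FPKM of library 1 and 0.151% of that of library 2. Each was higher in library 1 than in library 2, from 1.27-fold for *asp-4* to 3.96-fold for *cpr-1*.

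**Figure D1:**
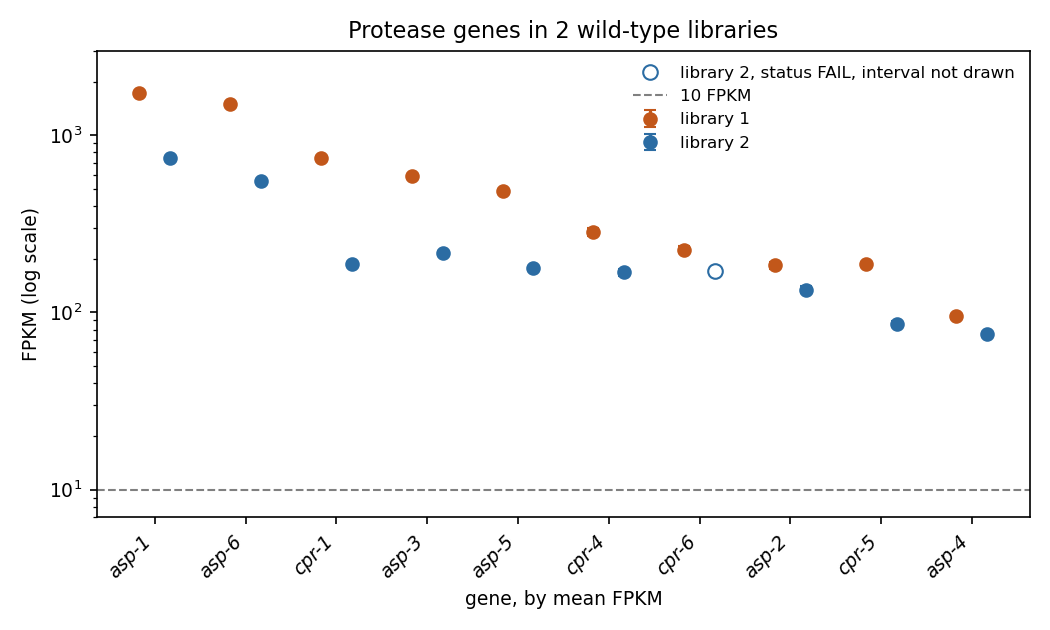
FPKM (log axis) of the 10 protease genes in library 1 (orange) and library 2 (blue), ordered by mean. Bars are the 95% intervals of Cufflinks, drawn equally far above and below the value, most of them smaller than the points, and the open point is *cpr-6* in library 2, whose interval is not drawn because its status is FAIL. In each gene the library 1 point lies above the library 2 point, and all points lie above the dashed line at 10 FPKM.

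*asp-1* (WBGene00000214), an aspartic protease of the intestine, had the highest level of the 10. It had 1726 FPKM in library 1 and 741 FPKM in library 2, a mean of 1233 ± 697 FPKM (SD, n = 2). These values placed it at rank 230 in library 1 and rank 436 in library 2 among the 42518 rows. Its gene lies on the − strand of chromosome V, from 19049562 to 19050752 in the WBcel235 annotation, and is annotated as a single exon that encodes 396 residues.

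*asp-6* (WBGene00000219) was next, with 1503 FPKM in library 1 and 554 FPKM in library 2 and a mean of 1029 ± 671 FPKM (SD, n = 2). *asp-5* (WBGene00000218) had 485 FPKM in library 1 and 177 FPKM in library 2, with a mean of 331 ± 218 FPKM (SD, n = 2). Both encode predicted pepsin-like enzymes, of 389 and 393 residues, and they are close neighbours on chromosome V. In WBcel235 *asp-6* runs from 8267511 to 8268937 on the − strand, *asp-12* from 8269210 to 8272056 on the + strand and *asp-5* from 8272385 to 8274044 on the + strand. *asp-12*, the gene between them, had only 3.82 FPKM in library 1 and 4.65 FPKM in library 2. The level of *asp-6* was thus above that of *asp-5* and that of *asp-5* above that of *asp-12* in both libraries. The ratio between the libraries was nearly the same for the outer genes, 2.71-fold for *asp-6* and 2.74-fold for *asp-5*. It was not particular to these neighbours, since *asp-3* on the X chromosome had a 2.71-fold ratio too.

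*asp-3* (WBGene00000216) and *asp-4* (WBGene00000217) encode lysosomal enzymes related to cathepsin D, and both are on the X chromosome, *asp-3* from 6791064 to 6792709 and *asp-4* from 13218985 to 13221462 in WBcel235. *asp-3* had 585 FPKM in library 1 and 216 FPKM in library 2, a mean of 401 ± 261 FPKM (SD, n = 2). *asp-4* had 95.2 FPKM in library 1 and 75.0 FPKM in library 2, a mean of 85.1 ± 14.2 FPKM (SD, n = 2), the lowest mean of the 10. The lower *asp-3* value was still above both *asp-4* values. The libraries differed 2.71-fold for *asp-3* and 1.27-fold for *asp-4*.

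*asp-2* (WBGene00000215) had 184 FPKM in library 1 and 134 FPKM in library 2, with a mean of 159 ± 35.3 FPKM (SD, n = 2). It lies on the + strand of chromosome V, from 9203077 to 9204734 in WBcel235, a span of 1658 bp, but its locus in the deposited tables is 4966 bp long and has 2 start sites, so its FPKM may rest on other transcripts than the annotation used here. It also overlaps the innexin gene *inx-10* on the opposite strand, which had 9.41 FPKM in library 1 and 9.78 FPKM in library 2. Whether the counting used strand is not given in the sources used here, so reads of such a pair cannot be told apart. Of the other members, *asp-4* overlaps R12H7.4 on the opposite strand, which was listed at 0 in library 1 and had 0.089 FPKM in library 2, and *cpr-4* overlaps an annotated piRNA, which was listed at 0 in both.

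Among the cathepsin B-like genes, *cpr-1* (WBGene00000781), a cysteine protease of the gut, was the highest in library 1. It had 743 FPKM in library 1 and 188 FPKM in library 2, a mean of 466 ± 393 FPKM (SD, n = 2), and this 3.96-fold ratio was the largest of the 10 genes. It lies on the + strand of chromosome V from 11975551 to 11976756 in WBcel235 and encodes 329 residues. *cpr-4* (WBGene00000784), whose product can be secreted and acts on other cells after irradiation, had 284 FPKM in library 1 and 169 FPKM in library 2, a mean of 227 ± 81.9 FPKM (SD, n = 2). *cpr-5* (WBGene00000785) had 188 FPKM in library 1 and 86.0 FPKM in library 2, a mean of 137 ± 72.2 FPKM (SD, n = 2). Both are on chromosome V, *cpr-4* from 6614674 to 6615851 and *cpr-5* from 1132598 to 1134036 in WBcel235.

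*cpr-6* (WBGene00000786), on the X chromosome from 6607207 to 6609045 in WBcel235 and with the most exons of the 10 genes, 8, had 226 FPKM in library 1 and 171 FPKM in library 2, a mean of 199 ± 39.2 FPKM (SD, n = 2). In library 2 the Cufflinks status of this row is FAIL and the lower bound of its 95% interval is 0, a status that only 3 of the 42518 rows of that library have. The value of *cpr-6* in library 2 thus has no usable interval. In library 1 its lower bound was 216 FPKM with status OK.

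The order of the genes was close to the same in both libraries, and 6 of the 9 pairs of neighbours by mean kept it. The gaps in mean were mostly below the SD between the libraries. All 10 were higher in library 1, so that SD includes a rise they share and does not measure order within a library. *asp-1* was first, *asp-6* came next, *asp-5* held place 5 and *asp-4* was last in each library, while *cpr-1* and *asp-3*, *cpr-4* and *cpr-6*, and *asp-2* and *cpr-5* each changed places. Of the 9 pairs of neighbours by mean, only *cpr-6* and *asp-2* had a gap, 39.3 FPKM, above the larger of their SDs, 39.2 FPKM, and there too the ranges of the libraries overlapped, as they did in all 9 pairs. Within library 1 the highest of the 10 was 18.1-fold above the lowest, and within library 2 it was 9.87-fold above. The 4 *cpr* genes were closer together, with 3.95-fold between highest and lowest in library 1 and 2.18-fold in library 2.

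The other genes of both families were looked up to place the 10 among their relatives. Of 13 other *asp* genes, 3 were expressed above 10 FPKM in both libraries. These were *asp-14* with 53.6 FPKM in library 1 and 29.9 FPKM in library 2, *asp-13* with 26.8 and 50.6 FPKM, and *asp-9* with 25.7 and 48.4 FPKM in the same order. All 3 lay below *asp-4* in both libraries. At the other end, *asp-11*, *asp-15*, *asp-16*, *asp-18* and *asp-19* were listed at 0 in both libraries. The 6 members held 97.2% of the summed FPKM of the 19 *asp* genes in library 1 and 92.4% in library 2.

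Of 4 other *cpr* genes, only *cpr-9* was above 10 FPKM, with 544 FPKM in library 1 and 451 FPKM in library 2, a mean of 497 ± 65.9 FPKM (SD, n = 2). The tables carry it and *cpr-8* under their sequence names. Its mean was above that of *cpr-1*, although *cpr-1* was higher in library 1. *cpr-3* had 6.87 FPKM in library 1 and 5.06 FPKM in library 2, *cpr-8* had 2.05 and 1.71 FPKM in the same order, and *cpr-2* was listed at 0 in library 1 and had 0.030 FPKM in library 2. The 4 members held 72.3% of the summed FPKM of the 8 *cpr* genes in library 1 and 57.3% in library 2. How reads that match several relatives were shared is not given in the sources used here, and no protein or transcript sequences were used to measure how alike they are.

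**Figure D2:**
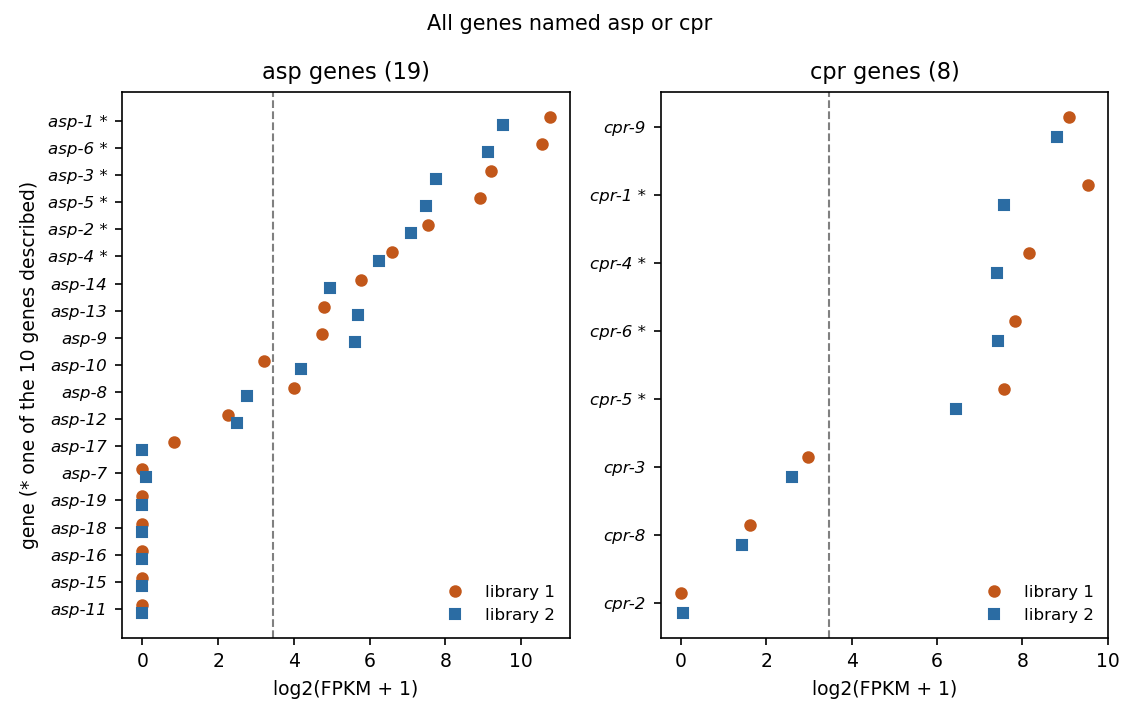
log2(FPKM + 1) of all 19 *asp* genes (left) and all 8 *cpr* genes (right) in library 1 (orange circles) and library 2 (blue squares), with the dashed line at 10 FPKM and an asterisk at each of the 10 genes described. The 6 *asp* members fill the upper end of their panel, and in the *cpr* panel *cpr-9* stands among the 4 members.

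The ratio between the libraries set the 10 genes beside the rest of the tables. All 10 were higher in library 1, against 41.9% of the 6885 expressed rows, and 6 were over 2-fold higher, against 6.78% of them. Among the 2225 expressed rows with a mean at or above that of *asp-4*, 50.9% were higher in library 1 and 9.12% were over 2-fold higher. The median log2 ratio of the 10, library 1 over library 2 on FPKM + 1, was 1.17, and the median over all expressed rows was -0.12, with the 5th percentile at -1.10 and the 95th at 1.17. The 6 genes over 2-fold were *cpr-1*, *asp-5*, *asp-6*, *asp-3*, *asp-1* and *cpr-5*, with ratios from 2.19 to 3.96. The other 4, *cpr-4*, *asp-2*, *cpr-6* and *asp-4*, had ratios from 1.27 to 1.69. The 3 genes on the X chromosome had ratios from 1.27 to 2.71 and the 7 on chromosome V from 1.37 to 3.96, so both ranges overlapped.

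**Figure D3:**
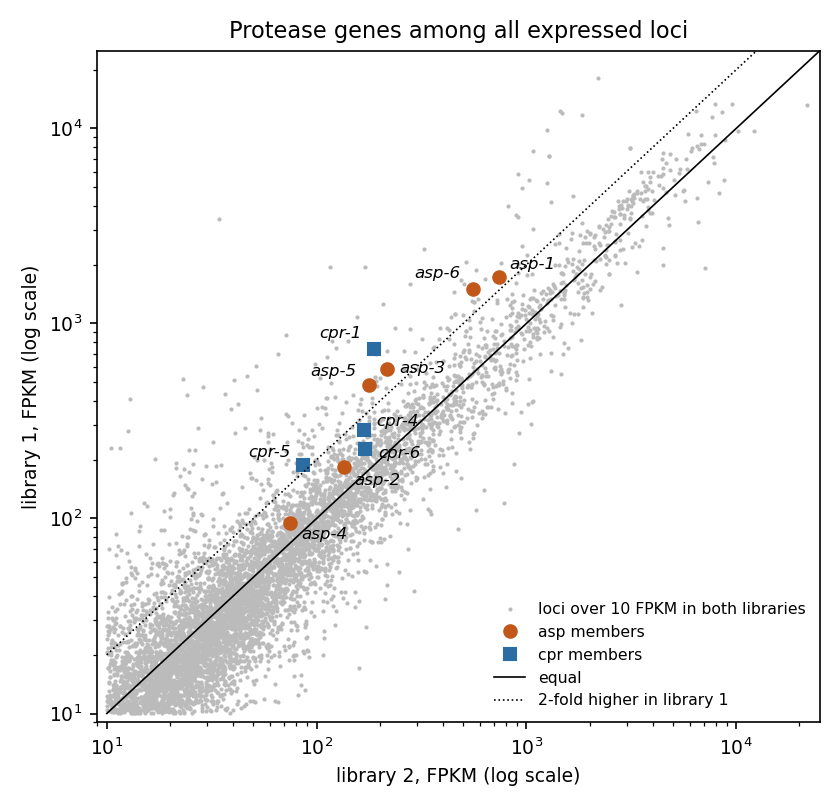
FPKM in library 1 (vertical, log axis) against library 2 (horizontal, log axis) for the 6885 rows above 10 FPKM in both (grey), with the *asp* members as orange circles and the *cpr* members as blue squares. All 10 lie above the solid line of equal values, and 6 lie above the dotted line of 2-fold higher in library 1.

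The intervals of Cufflinks were narrow beside these differences. Leaving out *cpr-6*, the lower bound lay from 0.815% to 4.76% below the value in library 1 and from 1.13% to 4.89% below it in library 2, and it lay farthest below in *cpr-4* and *asp-2*. For *asp-4*, the gene with the smallest ratio, the lower bound was 92.1 FPKM in library 1 and 72.6 FPKM in library 2. With the upper bound taken as equally far above the value, the intervals of all 9 genes with status OK lay apart between the libraries, against 75.5% of the 6881 expressed rows with that status. Library 1 was the higher in all 9, against 39.8% of the 5192 rows whose intervals lay apart. Intervals that lie apart were thus common in these tables, since they cover the error that Cufflinks models and not the spread between sorted samples.

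Other genes of the lysosome that passed the limit had ratios under 2-fold in either direction on the deposited scale, and these overlapped those of the 4 lowest members. The median log2 ratio over genes above 10 FPKM was 0.10 for 3 of 9 other lysosomal cathepsins and carboxypeptidases, 0.56 for 4 of 17 other lysosomal hydrolases and 0.02 for 5 of 9 lysosomal membrane proteins, and none of these 12 genes was over 2-fold higher in either library. The cathepsin L gene *cpl-1* had 510 FPKM in library 1 and 421 FPKM in library 2, and the cathepsin Z gene *cpz-1* had 352 and 329 FPKM in the same order. *tag-196*, a cathepsin F-like gene, was lower in library 1, with 78.3 FPKM there and 128 FPKM in library 2. Of the 4 hydrolases, 3 were higher in library 1. The α-glucosidase gene *aagr-3* had 95.2 FPKM in library 1 and 50.8 FPKM in library 2, the DNase II gene *nuc-1* had 59.9 and 32.8 FPKM in the same order, and *aagr-2* had 16.6 and 13.7 FPKM. The 1.87-fold ratio of *aagr-3* and the 1.83-fold ratio of *nuc-1* were above those of *cpr-4*, *asp-2*, *cpr-6* and *asp-4*. *hex-1*, a hexosaminidase gene, was lower in library 1, with 312 FPKM there and 499 FPKM in library 2. The lysosomal membrane glycoprotein gene *lmp-1* had 109 FPKM in library 1 and 107 FPKM in library 2. Of the 12 genes, 8 were higher and 4 were lower in library 1 on the deposited scale, against 6 and 6 on the TPM scale and 9 and 3 after upper-quartile scaling. The TPM scale gives both libraries the same sum, and upper-quartile scaling the same upper quartile. Larger ratios stood among the genes that did not pass 10 FPKM in both. The acid ceramidase gene *asah-1* had 36.4 FPKM in library 1 and 8.87 FPKM in library 2. *cpz-2*, of the cathepsin list, had 25.9 and 8.60 FPKM in the same order, a 3.01-fold ratio. Over whole lists, the median log2 ratio was 0.27 for the cathepsins and carboxypeptidases, 0.85 for the hydrolases and -0.11 for the membrane proteins. Of the 17 other hydrolases, 12 were higher in library 1 (11 on the TPM scale).

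The inhibitors, regulators and partners of these proteases were looked up as well. The cystatin genes *cpi-1* and *cpi-2*, whose products inhibit cysteine proteases, had 496 and 1022 FPKM in library 1 and 396 and 598 FPKM in library 2. *hlh-30*, the relative of TFEB that switches on lysosomal and autophagy genes, had 157 FPKM in library 1 and 121 FPKM in library 2, and *mxl-3*, a repressor of lysosomal lipase genes, had 117.9 and 122.3 FPKM in the same order. The gene of the zinc finger factor *pqm-1*, the other regulator above 10 FPKM, was 2.39-fold higher in library 1, with 38.0 FPKM there and 15.9 FPKM in library 2. In the pathway of necrotic neuron death, in which calcium release and calpains act before *asp-3* and *asp-4*, the calpain gene *clp-1* had 206 FPKM in library 1 and 230 FPKM in library 2, and the calpain gene *tra-3* had 9.87 and 9.57 FPKM. The calreticulin gene *crt-1* had 3531 FPKM in library 1 and 909 FPKM in library 2, a 3.88-fold ratio close to that of *cpr-1*. The calcium-release channel genes ran the other way, with 2.02 FPKM in library 1 and 5.52 FPKM in library 2 for the IP3 receptor gene *itr-1* and 5.59 and 8.55 FPKM in the same order for the ryanodine receptor gene *unc-68*. Of the 5 genes of this pathway, 2 were higher and 3 were lower in library 1, against 1 and 4 on the TPM scale.

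Markers of the intestine moved with the proteases in part. Of 13 intestinal genes, 10 were higher in library 1 (9 on the TPM scale), and the summed level of the list was 4117 FPKM in library 1 and 1996 FPKM in library 2. The largest values in this sum were those of *mtl-2*, 1767 FPKM in library 1 and 1004 FPKM in library 2. *mtl-1* had 516 and 23.0 FPKM in the same order, a 22.4-fold ratio, and *act-5* had 475 and 359 FPKM, a 1.32-fold ratio. Of the 7 above 10 FPKM in both libraries, 4 were over 2-fold higher in library 1, *mtl-1*, *ifb-2*, *vha-6* and *vit-2*. The median log2 ratio of these 7 was 1.38, and over all 13 genes of the list it was 0.66. No marker of the list was listed at 0, but the GATA factor genes that define the intestine ran the other way. *elt-2* had 1.68 FPKM in library 1 and 5.36 FPKM in library 2, and *elt-7* had 4.11 and 13.2 FPKM in the same order. The other gene of the list lower in library 1 was *pho-1*, with 1.61 FPKM there and 3.37 FPKM in library 2. The gut esterase gene *ges-1* was higher in library 1, with 1.46 FPKM there and 0.863 FPKM in library 2. The part of intestinal RNA in the ratio of the proteases was not tested.

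Summed markers of other cells differed less between the libraries or ran the other way. Of 16 pan-neuronal genes, 14 were lower in library 1 (11 after upper-quartile scaling), with a median log2 ratio of -0.55 and a summed level of 16957 FPKM in library 1 and 18680 FPKM in library 2. Of 7 genes of cholinergic motoneurons, 6 were lower in library 1 (7 on the TPM scale, 4 after upper-quartile scaling), with 1232 FPKM in library 1 and 1637 FPKM in library 2 in sum. The 3 markers of coelomocytes, scavenger cells rich in lysosomes, were below 10 FPKM in at least 1 library, and their sum was 17.2 FPKM in library 1 and 26.7 FPKM in library 2. Body-wall muscle genes summed to 7418 FPKM in library 1 and 7321 FPKM in library 2, and germline genes to 732 and 709 FPKM. Of 8 body-wall muscle genes, 4 were higher and 4 were lower in library 1. Of 8 germline genes, 6 were lower in library 1 (4 after upper-quartile scaling), with a median log2 ratio of -0.29. The hypodermal list summed to 2377 FPKM in library 1 and 2806 FPKM in library 2, and the pharyngeal list to 175 and 147 FPKM. Of 7 hypodermal genes, 6 were lower in library 1. Of 7 pharyngeal genes, 5 were higher and 1 was lower in library 1, with a median log2 ratio of 0.40, and 2 passed 10 FPKM in both libraries. At 0 were the hypodermal gene *bli-1* in library 1 and the pharyngeal gland gene *phat-1* in both libraries.

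**Figure D4:**
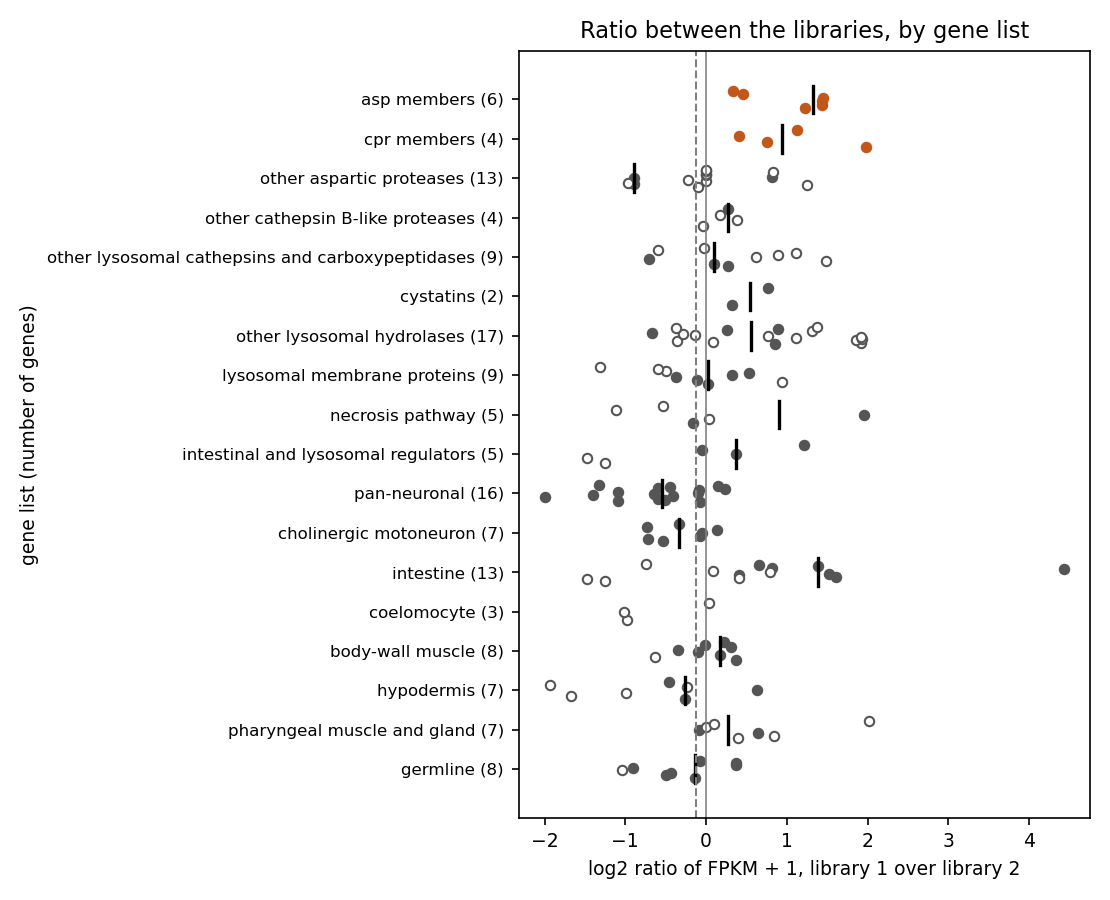
log2 ratio of FPKM + 1, library 1 over library 2, for each gene of the *asp* and *cpr* members (orange) and of the lists looked up (grey), with genes above 10 FPKM in both libraries filled and others open. Black bars are medians of the filled points, the solid line is 0 and the dashed line is the median of all expressed rows at -0.12. The *asp* members have a median of 1.33, the *cpr* members 0.94 and the 7 filled intestinal genes 1.38, and the pan-neuronal list lies at -0.55. Over all 13 intestinal genes the median is 0.66.

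The genes whose pair of values came closest to the highest member of each family were found by the distance of log2(FPKM + 1) over the 2 libraries. For *asp-1* they were the neuropeptide gene *flp-5*, with 1683 FPKM in library 1 and 635 FPKM in library 2 and a distance of 0.22, F14F11.2 at 0.25 and Y12A6A.2 at 0.29. For *cpr-1* they were the neuropeptide gene *flp-19*, with 699 FPKM in library 1 and 192 FPKM in library 2 and a distance of 0.09, Y39G10AR.30 at 0.21 and *asp-3* at 0.40. With 2 libraries such a distance reflects only the level and the ratio of a gene.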

How the data were processed

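The authors made TruSeq libraries, read them as single-end sequences on a HiSeq4000 and mapped these with TopHat. They deposited the FPKM that Cufflinks gave each gene, with the bounds of its 95% interval and a status. The submitters' processing notes name ce10. Program versions, annotation and any scaling between libraries are not given in the sources used here. Read counts were not analysed, so the depth on genes is unknown and Cufflinks intervals are given instead. From the lower bound, the upper one was taken as equally far above the value. In all, 2 columns of values, the deposited upper bounds of the 2 libraries, were not used.

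The names of the tables hold the strain and the number 1 or 2, by which the libraries are called here, but no source used here ties that number to a sample. Their rows were joined on gene name, start sites and locus. Ratios on the log2 scale are library 1 over library 2 of FPKM + 1, and folds are of the plain FPKM. Every gene of the 16 lists was found, 4 by sequence name through RefSeq. Where a symbol had several loci, the highest was used. Named genes are the 10 members, list genes over 10 FPKM or with a stated role, and the 3 nearest to the highest member of each family. Other list genes, such as *asp-12*, *cpr-3*, *cpz-2*, *itr-1*, *unc-68* and *asah-1*, were named after their values were seen. The members and lists were chosen with earlier results of these data known. Coordinates and exons come from Ensembl release 115 (WBcel235), which is not the build of the tables. Python 3.11.15, numpy 2.4.6, pandas 2.3.3, scipy 1.17.1 and matplotlib 3.10.9 were used.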

Additional observations from a re-analysis of the deposited data

How the results depend on the processing

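No paired analysis was possible because the values are all of 1 condition. The number of the 10 genes over the limit was 10 at 1, 5, 10 and 20 FPKM, 8 at 100 FPKM and 9 with the Cufflinks lower bound in place of the value, which leaves out *cpr-6*. With a library left out in turn it was 10 each time, and the median level ranged from 174 to 385 FPKM. On the TPM scale, which multiplies each library by 1 factor, that median was 157, and without *cpr-6*, a setting chosen after the data were seen, it was 331 FPKM. The median log2 ratio ranged from 1.03 on the TPM scale to 1.32 after upper-quartile scaling, and all 10 genes stayed higher in library 1 under each scaling and pseudocount. The number over 2-fold was 6, except 5 on the TPM scale. Scaling moved the median of all expressed rows from -0.12 to -0.25 on the TPM scale and to 0.03 after upper-quartile scaling. The intervals of 9 genes lay apart under every scaling.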
